A study of Mus musculus with 25 samples.

Results

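Diethylnitrosamine (DEN) is a liver carcinogen that hepatocytes activate, chiefly through the cytochrome P450 Cyp2e1, into an agent that alkylates DNA. The response to DEN is described here in livers called DKO. By the alleles the mice carried, their hepatocytes were meant to lack the retinoblastoma protein Rb and the tumour suppressor p53. By their titles, 5 DEN DKO arrays were set against 3 untreated DKO arrays, 8 of the 25 expression arrays analysed. DEN DKO mice carried Cre recombinase under the albumin promoter and loxP sites in the Rb and p53 genes, and their liver was taken 24 h after a single intraperitoneal dose of 20 mg/kg given at 14 days of age. Untreated DKO mice had the same alleles and the same strain, FVB;129, and the series text gives 14 days as the age of control mice too. Their treatment is given as none in the sample labels and as saline in the series text. Where a difference from wild type is given, it rests on 5 DEN WT and 3 untreated WT arrays, labelled wild type at both genes and of the same strain, and the labels do not say whether WT mice carried Cre. The albumin promoter is active in hepatocytes, so the endothelial, stellate, immune and blood cells of the same liver keep both genes. RNA came from whole frozen liver, and fewer cells of a type and less RNA per cell cannot be told apart. The labels do not say that the arrays of a group were separate animals, so the p-values speak only of variation among these arrays, which could be technical.

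Rb binds E2F transcription factors and holds back the genes of DNA replication and mitosis, and p53 switches on genes of arrest, repair and cell death after DNA damage. Injured liver also receives cytokines such as interleukin 6, to which hepatocytes answer with the acute phase response, a change in the plasma proteins they secrete. The values below are log2 signals after RMA (background correction, quantile normalization and median polish), so a difference of 1 is a 2-fold change. Calls were made with limma in a fit over all 25 arrays with a term for the array set, where the p adjusted over 15951 tested genes by Benjamini and Hochberg fell under 0.05. Differences are DEN minus untreated, with the standard error (SE).

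The array names fall into 3 sets. DEN DKO replicates 1 to 3 and all 3 untreated DKO arrays were in set 1, whereas DEN DKO replicates 4 and 5 were in set 3 and stood apart. On the first principal component of the 8 DKO arrays (58.7% of the variance) DEN replicates 1 to 3 lay at -10.4 to -3.1 and DEN replicates 4 and 5 at -40.8 and -39.7, against 33.5 to 34.5 on untreated arrays. The standard deviation over all probe sets was 1.94 to 2.07 on DEN DKO arrays and 2.14 to 2.17 on untreated DKO arrays. Xist, which is transcribed from the inactive X chromosome of females, was at 10.0 and 10.1 on DEN DKO replicates 3 and 5 and at 2.87 to 3.83 on the other 6 DKO arrays, so the sexes were not matched. In WT the imbalance of Xist ran the other way. It was at 9.82 and 10.5 on untreated WT replicates 1 and 3, 4.15 on untreated WT replicate 2 and 3.38 to 3.92 on DEN WT arrays. Among WT arrays, DEN replicates 4 and 5 and untreated replicate 3 formed set 2. DEN WT replicate 5 was at 3.03 and replicate 4 at 6.62 for Saa1, against 8.80 to 9.92 on DEN WT replicates 1 to 3. Rb1 (probe set 10421526) read 5.18, 5.57, 5.51, 5.82 and 5.35 in DEN DKO and 5.02, 5.02 and 4.76 in untreated DKO, and 5.34, 5.30 and 5.76 in untreated WT. In DEN WT it read 6.02, 5.90, 5.82, 5.97 and 5.04. The DKO difference of 0.48 (SE 0.20, adjusted p = 0.0885) was not called. The probe set spans the transcript and the deleted part is not given, so Rb1 checks the genotype only weakly, and p53 transcripts were not analysed here.

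DEN changed many genes in DKO liver, and more were lower than higher. Of the 15951 genes, 3344 (21%) were called, 716 (4.49%) higher and 2628 (16.5%) lower, and 5296 had an unadjusted p under 0.05. At 2-fold or more, 70 genes rose and 395 fell. Every DEN array lay below every untreated DKO array for 21.3% of all genes and above for 8.19%, so separate groups were common. All 3344 had the same sign within set 1, where 4030 genes were called and 3176 of the 3344 were called again. Set 1 holds all 3 untreated and 3 of the 5 DEN DKO arrays of the main fit, so this is not an independent check. The balance depended on scaling. Of the calls 78.6% were lower, but 52.7% were when each array was centred on its median (1727 higher, 1923 lower), a step that shifted the all-gene median by 0.107. Both scalings called 716 genes higher and 1923 lower. The median difference of all genes was -0.0040. Ranked by signal into 4 equal bins, 27.3% and 27% of genes were lower in the 2 brighter bins, and 9.98% and 1.58% in the 2 dimmer ones. Most gene lists below had a mean signal in the range of the 2 brighter bins. For them a share lower near 27% is that of genes as bright.

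**Figure D1:**
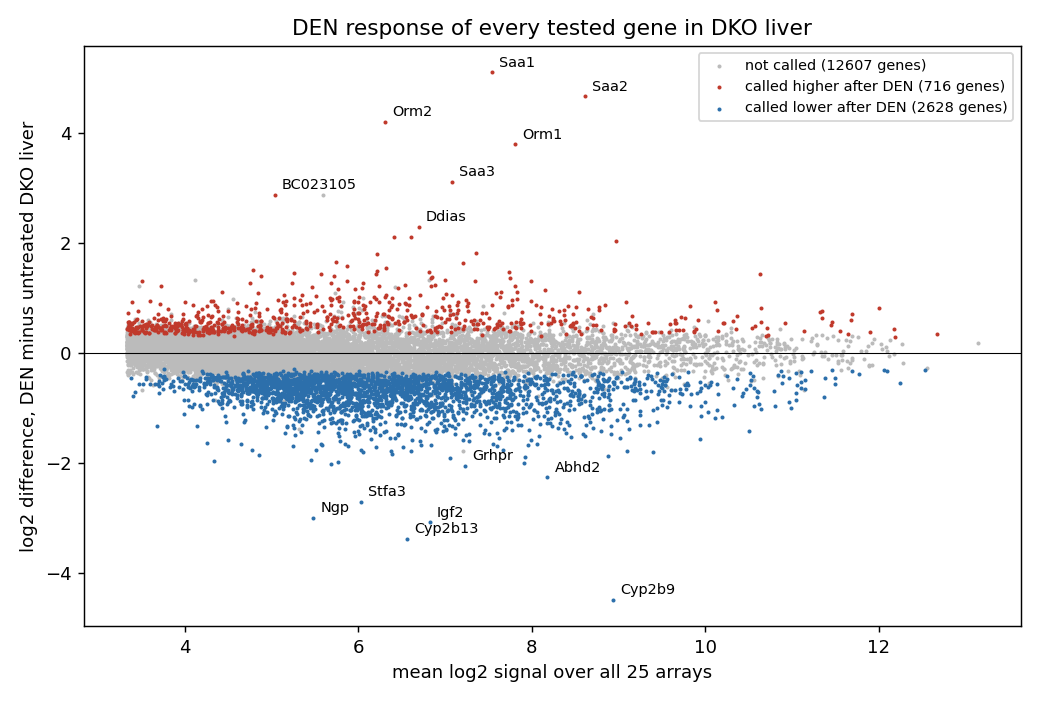
Mean log2 signal over all 25 arrays (x axis) against the log2 difference DEN minus untreated DKO (y axis), 1 point per tested gene, red for the 716 genes called higher and blue for the 2628 called lower. Serum amyloid and orosomucoid genes stand alone at the top, with Saa1 at 5.09, and Cyp2b9 lies lowest at -4.48.

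The genes that rose most were acute phase genes. Saa1 and Saa2 encode serum amyloid A, a protein carried on lipoproteins that rises steeply in plasma after injury, Saa3 its form made outside as well as inside hepatocytes, and Orm1 and Orm2 the plasma carrier orosomucoid. Saa1 read 9.19, 9.29, 9.56, 9.86 and 10.06 in DEN DKO, against 4.16, 5.99 and 4.31 in untreated DKO. The groups were far apart, and untreated replicate 2 was the highest untreated array here and for Saa2, Saa3, Orm1 and Orm2. The fitted rise of Saa1 was 5.09 (SE 0.67, adjusted p = 1.08e-05), or 34.1-fold. Saa2 read 10.42, 10.15, 10.73, 11.41 and 10.84 in DEN DKO, against 5.65, 7.48 and 5.80 in untreated DKO (4.66, SE 0.61, adjusted p = 9.13e-06). Saa1 and Saa2 are close paralogues, and their probe sets may share signal. Orm2 read 8.13, 7.82, 8.36, 7.83 and 7.63 after DEN and 3.63, 5.27 and 3.67 untreated (4.19, SE 0.50, adjusted p = 3.51e-06). Orm1 was at 8.81 to 10.04 after DEN and at 5.59 to 6.85 untreated, and Saa3 was at 8.56 to 9.01 after DEN and at 5.67 to 6.38 untreated. For each of these 5 genes the lowest DEN array lay above the highest untreated one. Within set 1 the rises were 4.53, 4.12, 3.91, 3.64 and 2.84 for Saa1, Saa2, Orm2, Orm1 and Saa3.

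The bases before the start of 3 of these genes are shown because the genes move together by the widest margin. The 250 bases upstream come from RefSeq on GRCm38.p6, 5′ to 3′ on the gene's strand. Capitals mark matches to TTGCNNAA, the core of sites for C/EBP factors, which act in the acute phase response.
Saa1, chr7:46742981-46743230, minus strand: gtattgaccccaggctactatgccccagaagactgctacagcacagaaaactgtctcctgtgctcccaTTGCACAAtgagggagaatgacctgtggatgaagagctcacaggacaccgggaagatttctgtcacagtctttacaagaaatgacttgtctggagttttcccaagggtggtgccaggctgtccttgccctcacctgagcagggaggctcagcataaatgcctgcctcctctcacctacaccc
Saa2, chr7:46751583-46751832, plus strand: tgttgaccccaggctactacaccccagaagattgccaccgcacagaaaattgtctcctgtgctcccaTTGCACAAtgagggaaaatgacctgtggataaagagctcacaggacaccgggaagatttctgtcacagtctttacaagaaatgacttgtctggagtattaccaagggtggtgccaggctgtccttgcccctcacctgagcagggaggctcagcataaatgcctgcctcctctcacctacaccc
Orm2, chr4:63362199-63362448, plus strand: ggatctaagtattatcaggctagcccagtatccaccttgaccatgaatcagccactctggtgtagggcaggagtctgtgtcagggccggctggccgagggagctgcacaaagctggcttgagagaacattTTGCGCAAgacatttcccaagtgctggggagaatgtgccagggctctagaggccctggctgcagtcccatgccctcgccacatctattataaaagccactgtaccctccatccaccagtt

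The match in Saa1 lies 182 to 175 bases before the start, that in Saa2 183 to 176 and that in Orm2 120 to 113, where it reads the same on both strands. On either strand, TTGCNNAA was present in 12 of 23 acute phase promoters in the table (52.2%) and in 9.55% of all 27025 promoters of that length. It was in all 6 serum amyloid and orosomucoid promoters listed, including that of Saa4, which was not called. The promoter of Orm1 was not in the table. A match describes the letters and not binding.

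The acute phase list as a whole did not move one way. Of 28 measured members 8 rose and 7 fell (28.6% and 25%, against 4.49% and 16.5% of all genes), with a median of -0.05. Besides the 5 above, Apcs (serum amyloid P, a pentraxin), Orm3 and Fgl1 rose by 0.81, 0.88 and 0.44. Serpina3n, a protease inhibitor induced in many inflammatory settings, read 9.47, 9.70, 9.56, 9.68 and 9.27 in DEN DKO, against 10.57, 10.74 and 10.66 in untreated DKO. It therefore fell, at -1.04 (SE 0.16, adjusted p = 4.23e-05), with no overlap. Lbp, which binds bacterial lipopolysaccharide, read 8.97, 9.09, 8.84, 8.92 and 8.87 after DEN and 9.99, 10.00 and 10.09 untreated (-1.05, SE 0.16). The inter-alpha-trypsin inhibitor chains Itih3 (-0.86, SE 0.12) and Itih4 (-0.80) and the haemoglobin scavenger Hp (-0.55) were lower as well. Orm3 was not called without untreated replicate 1 (0.73, adjusted p = 0.0727), nor without the set term or within set 1 (0.66 to 0.75, adjusted p = 0.0531 to 0.111). Fgl1 was not called without untreated replicates 1, 2 or 3 or DEN replicate 3 (0.38 to 0.47, adjusted p = 0.0614 to 0.136), nor without the set term, with the groups of the comparison alone, with quantile normalization repeated or with Xist as a covariate (0.31 to 0.44, adjusted p = 0.0509 to 0.121). The fibrinogen chain Fgb (0.04, adjusted p = 0.823), Crp (-0.02, adjusted p = 0.911), Lcn2 (0.34, adjusted p = 0.572) and Hamp (-0.94, adjusted p = 0.376) were not called. With arrays centred, 8 members were higher and 5 lower, where 10.8% and 12.1% of all genes were.

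**Figure D2:**
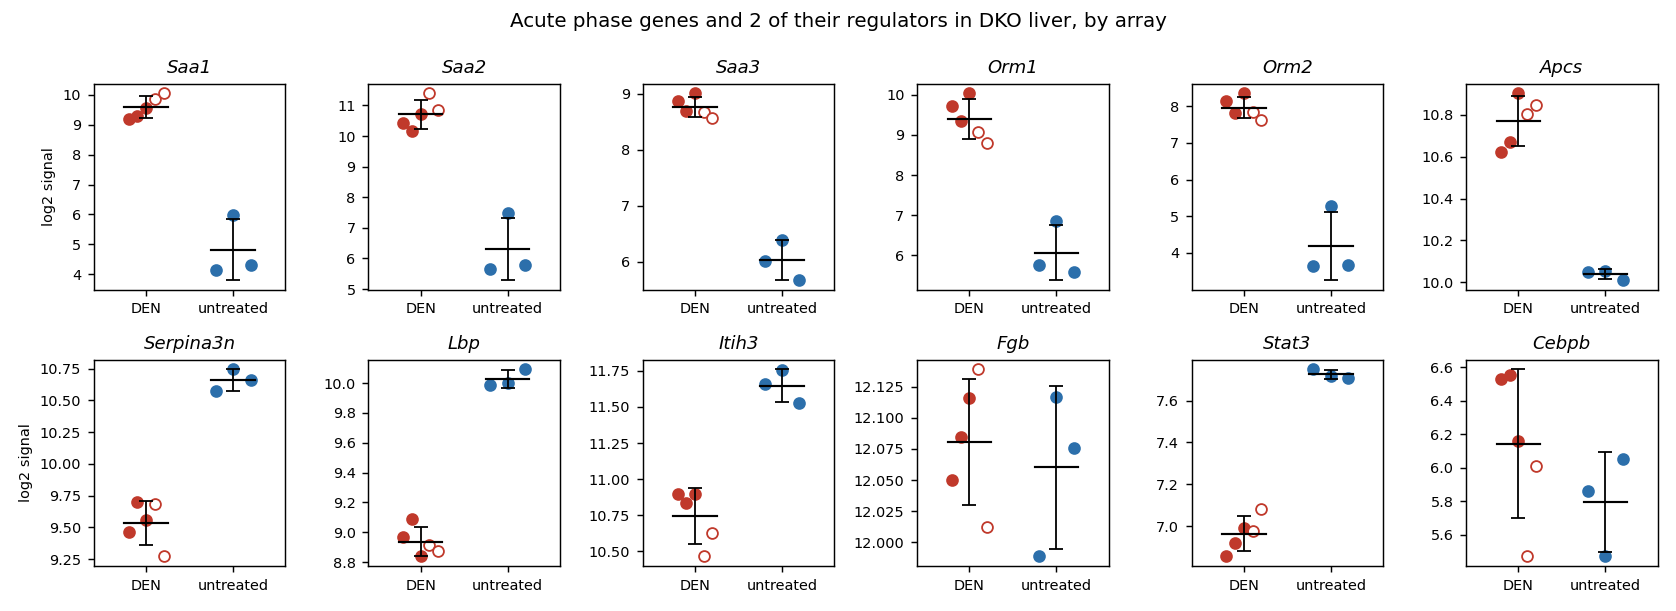
Log2 signal (y axis) of 12 genes on each DEN (red, left) and untreated (blue, right) DKO array, with the mean and SD as black lines; open circles are DEN replicates 4 and 5 of set 3. The Saa and Orm panels show the DEN arrays above the untreated ones, and Serpina3n, Lbp, Itih3 and Stat3 below them.

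Genes of interleukin 6 and NF-kB signalling were called about as often as genes at large. In this list 1 of 33 rose and 7 fell (3.03% and 21.2%, against 4.49% and 16.5% of all genes), with a median of -0.05, and 4 of the 6 receptor genes were among those lower. The transcription factor Stat3, which the receptor activates, read 6.85, 6.92, 6.99, 6.98 and 7.08 in DEN DKO, against 7.75, 7.72 and 7.71 in untreated DKO. All DEN arrays were lower, and the difference was -0.77 (SE 0.16, adjusted p = 0.00123). The receptor chains Il6st (-0.67, SE 0.16) and Il6ra (-0.77, SE 0.23), the kinase Jak1 (-0.50, SE 0.13) and the TNF receptor Tnfrsf1a (-0.52, SE 0.12) also fell. Cebpb, which encodes a C/EBP factor, read 6.53, 6.55, 6.16, 5.47 and 6.01 in DEN DKO, against 5.86, 5.47 and 6.05 in untreated DKO. It was called higher (0.55, SE 0.18, adjusted p = 0.0294), but replicates 4 and 5 lay within the untreated range. Il6ra was not called without untreated replicates 1 or 3 (-0.75 to -0.74, adjusted p = 0.0533 to 0.0573), nor with quantile normalization repeated (-0.63, adjusted p = 0.0527). Jak1 was not called with quantile normalization repeated (-0.35, adjusted p = 0.0697). Tnfrsf1a was not called without the set term or with quantile normalization repeated (-0.76 to -0.37, adjusted p = 0.0552 to 0.057). Cebpb was not called without untreated replicates 1 or 2 or DEN replicates 1 or 2 (0.38 to 0.58, adjusted p = 0.0579 to 0.201), nor without the set term or with set as a random block (0.35 to 0.49, adjusted p = 0.0565 to 0.261). The list had 4 members lower without untreated replicate 3 and 3 lower with quantile normalization repeated. None of the 8 measured ligands was called, and the feedback inhibitor Socs3 was at -0.35 (adjusted p = 0.294).

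Many complement and coagulation genes, whose products hepatocytes also secrete, fell. Of 33, 16 were lower and 2 higher (48.5% and 6.06%, where 16.5% and 4.49% of all genes were), at a median of -0.35, with 11 of 16 coagulation genes and 5 of 17 complement genes among those lower. Serpinf2, which inhibits plasmin, read 9.14, 9.30, 8.91, 8.34 and 8.44 in DEN DKO, against 10.84, 10.70 and 10.70 in untreated DKO (-1.80, SE 0.22, adjusted p = 3.51e-06). Masp1, a protease of the lectin pathway, read 7.50, 7.45, 7.78, 6.96 and 7.22 after DEN and 8.73, 8.72 and 8.77 untreated (-1.30, SE 0.15, adjusted p = 3.42e-06). Neither gene's groups overlapped, and the arrays of set 3 were lowest for both. Plasminogen (Plg, -0.99), protein C (Proc, -1.25), Masp2 (-0.87) and prothrombin (F2, -0.97) fell too. The terminal complement component C9 was called higher at 0.43, although its groups overlapped. C9 was not called without untreated replicates 1, 2 or 3 or DEN replicates 1 or 3 (0.36 to 0.45, adjusted p = 0.0652 to 0.112), nor without the set term, with set as a random block or with Xist as a covariate (0.27 to 0.41, adjusted p = 0.0625 to 0.406). None of the 33 was higher without untreated replicate 1. Fgb and C6 (0.03, adjusted p = 0.932) were not called.

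Among genes known as p53 targets, some rose in DKO liver. Of 28 measured targets 6 rose and 2 fell (21.4% and 7.14%, against 4.49% and 16.5% of all genes), with a median of 0.15. Ccng1 (cyclin G1) read 8.77, 8.73, 9.15, 9.86 and 9.11 in DEN DKO, against 6.93, 7.26 and 6.97 in untreated DKO, and rose by 2.04 (SE 0.22, adjusted p = 1.89e-06). Mdm2, the ubiquitin ligase that degrades p53, read 6.74, 6.50, 6.73, 8.50 and 7.53 after DEN and 5.98, 6.09 and 6.07 untreated (0.85, SE 0.25, adjusted p = 0.015). Eda2r, a death receptor, read 3.75, 3.59, 3.88, 4.80 and 4.52 after DEN and 3.08, 3.08 and 2.90 untreated (0.92, SE 0.27, adjusted p = 0.0177). For these 3 genes every DEN array was above every untreated one, and replicate 4 was the highest. The translesion polymerase Polk (0.87, SE 0.16) and Phlda3, an inhibitor of Akt (0.90, SE 0.19), rose as well. Sesn1 (-0.62, SE 0.15) and the damage sensor Xpc (-0.56, SE 0.14) fell, and Aen (0.47, adjusted p = 0.0582), Bbc3 (0.15, adjusted p = 0.539), Fas (-0.32, adjusted p = 0.255) and Btg2 (-0.30, adjusted p = 0.622) were not called. Mdm2 was not called without untreated replicate 1 (0.82, adjusted p = 0.0547). Eda2r was not called without untreated replicate 3 (0.86, adjusted p = 0.0681), nor with quantile normalization repeated (0.76, adjusted p = 0.0575). Phlda3 was not called without the set term (0.68, adjusted p = 0.0688). In WT liver DEN raised 11 of the 28 (39.3%, against 2.08% of all genes) and lowered none (1.91% of all genes). The difference of the responses, DKO minus WT, was called below 0 for 3 (10.7%, a share near the 8.54% of all genes) and above 0 for none (1.36% of all genes).

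In the Rb pathway list 2 of 27 rose and 4 fell (7.41% and 14.8%, against 4.49% and 16.5% of all genes), shares near those of all genes, at a median of 0.01. Of its 8 cyclins and kinases 3 fell and 1 rose. Cdk4, a kinase that inactivates Rb, read 6.61, 7.01, 6.77, 6.82 and 6.64 in DEN DKO, against 7.82, 7.65 and 8.03 in untreated DKO (-1.13, SE 0.19, adjusted p = 0.000122). Its partner cyclin D1 (Ccnd1) read 6.30, 6.25, 6.39, 6.70 and 6.31 after DEN and 7.77, 7.31 and 7.38 untreated (-1.22, SE 0.22, adjusted p = 0.000224), and Cdk6 fell as well (-0.89, SE 0.14). Cdk2, which also acts on Rb, was not called (-0.23, adjusted p = 0.333). Cyclin E2 (Ccne2), which drives entry into S phase, rose. It read 7.00, 6.74, 7.17, 7.12 and 6.57 in DEN DKO, against 5.46, 5.92 and 5.99 in untreated DKO (1.18, SE 0.25, adjusted p = 0.00142). The groups of Cdk4, Ccnd1 and Ccne2 did not overlap. The kinase inhibitor p27 (Cdkn1b) was called higher at 1.06 (SE 0.28), but replicate 5, at 6.31, lay below all 3 untreated arrays (7.02 to 7.14). Cdkn1b was not called without the set term or with set as a random block (0.48 to 0.96, adjusted p = 0.0592 to 0.626). E2f4 fell (-0.50). E2f4 was not called without untreated replicate 1 (-0.43, adjusted p = 0.0515). E2f1 (-0.03, adjusted p = 0.917), E2f2 (0.04, adjusted p = 0.87), E2f3 (-0.26, adjusted p = 0.273) and the pocket proteins Rbl1 (0.38, adjusted p = 0.26) and Rbl2 (0.01, adjusted p = 0.96) were not called.

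All called mitotic genes rose. Of 38 measured, 17 rose and none fell, or 44.7% higher where 4.49% of all genes were. The median was 0.65, or 0.77 within set 1, where 29 (against 6.56% of all genes) were called higher. Bub1, a kinase of the spindle checkpoint, read 6.97, 6.90, 7.27, 7.50 and 7.33 in DEN DKO, against 5.34, 5.30 and 5.81 in untreated DKO (1.49, SE 0.35, adjusted p = 0.00304). Ncapg, a subunit of condensin, read 7.71, 7.35, 7.88, 8.06 and 7.90 after DEN and 5.99, 5.99 and 6.63 untreated (1.38, SE 0.32, adjusted p = 0.00281). Topoisomerase II (Top2a) read 9.02, 8.93, 9.29, 9.00 and 8.81 after DEN and 7.58, 7.71 and 8.00 untreated (1.14, SE 0.31, adjusted p = 0.00997). The groups did not overlap for these or for 24 other members, all in the direction of a rise, and 8.19% of all genes had every DEN array above every untreated one. Hmmr (1.26), the kinetochore subunits Ndc80 (0.89) and Spc25 (0.84), the checkpoint genes Ttk (1.01) and Mad2l1 (0.88) and the mitotic kinase Cdk1 (0.65) rose as well. By role, 7 of 14 checkpoint and kinetochore genes, 8 of 16 spindle, chromosome and cytokinesis genes and 2 of 8 kinases and cyclins rose. The proliferation marker Mki67 (0.25, adjusted p = 0.592), Plk1 (0.03, adjusted p = 0.93), Aurkb (-0.14, adjusted p = 0.56), Cdc20 (0.15, adjusted p = 0.642) and Ccnb2 (0.17, adjusted p = 0.596) were not called. Ndc80 was not called without untreated replicate 1 (0.73, adjusted p = 0.0503). Ttk was not called without untreated replicate 2 (0.91, adjusted p = 0.0539). Cdk1 was not called without untreated replicates 1 or 2 or DEN replicates 1 or 3 (0.53 to 0.60, adjusted p = 0.0686 to 0.0811), nor without the set term or with set as a random block (0.76 to 0.78, adjusted p = 0.0537 to 0.179). The count of rises was 9 without untreated DKO replicate 2, 10 without untreated DKO replicate 1 and 11 without DEN DKO replicate 3, and the median stayed between 0.53 and 0.77 over all 8 single omissions.

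The bases before Bub1 and Hmmr are shown because mitotic genes are known for CCAAT boxes, which bind NF-Y, near their start. Capitals mark CCAAT on either strand, which reads ATTGG on the other.
Bub1, chr2:127831860-127832109, minus strand: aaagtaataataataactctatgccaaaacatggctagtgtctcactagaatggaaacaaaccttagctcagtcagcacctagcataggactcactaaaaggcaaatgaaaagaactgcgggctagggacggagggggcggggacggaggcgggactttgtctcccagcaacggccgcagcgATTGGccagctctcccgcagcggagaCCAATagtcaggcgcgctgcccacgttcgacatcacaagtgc
Hmmr, chr11:40733438-40733687, minus strand: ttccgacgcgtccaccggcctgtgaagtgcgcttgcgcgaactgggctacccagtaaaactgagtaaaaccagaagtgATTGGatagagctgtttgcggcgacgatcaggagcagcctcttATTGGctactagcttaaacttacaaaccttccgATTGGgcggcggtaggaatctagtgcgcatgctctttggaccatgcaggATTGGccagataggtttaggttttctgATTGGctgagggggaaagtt

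Bub1 had 2 such matches and Hmmr 5. CCAAT was found in 24 of 34 mitotic promoters in the table (70.6%), 16 of 29 of replication (55.2%), 12 of 19 of recombination (63.2%) and 2 of 23 of the acute phase (8.7%), against 34.5% of all. TTTGAA, the cell cycle homology region bound by the DREAM complex, in which the pocket proteins of Rbl1 and Rbl2 act, was in 10 of the 34 mitotic promoters (29.4%) and in 16.3% of all. The E2F site written as TTTCCCGC was in 0 of the 34 mitotic promoters, 2 of 29 of replication (6.9%) and 3 of 19 of recombination (15.8%), against 0.929% of all. The form TTTGGCGC was in 2 (5.88%), 3 (10.3%) and 0 of them, against 0.437% of all.

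Genes of DNA replication moved both ways. Of 35, 8 rose and 3 fell (22.9% and 8.57%, against 4.49% and 16.5% of all genes), at a median of 0.10. Geminin (Gmnn), which blocks relicensing of origins, read 6.54, 6.73, 6.81, 6.19 and 6.64 in DEN DKO, against 5.85, 5.52 and 5.94 in untreated DKO (0.93, SE 0.17, adjusted p = 0.000246). Ribonucleotide reductase Rrm2 read 7.41, 7.24, 7.50, 8.18 and 7.91 after DEN and 6.47, 6.45 and 6.51 untreated (0.96, SE 0.20, adjusted p = 0.000982). Both were higher on every DEN array. The clamp loader subunit Rfc4 (1.02), the Cdc7 activator Dbf4 (1.01) and the helicase subunit Gins1 (0.65) rose. Its partner Gins2 fell (-0.83). Gins1 was not called without untreated replicate 1 (0.56, adjusted p = 0.0576), nor without the set term or with set as a random block (0.63 to 0.73, adjusted p = 0.0688 to 0.362). Gmnn was not called without the set term (0.81, adjusted p = 0.1). Without untreated replicate 1, 5 members of the list rose and 1 fell, and 1 also fell without untreated replicate 3, with arrays centred and with quantile normalization repeated. Pcna (0.31, adjusted p = 0.0852) and Mcm5 (-0.26, adjusted p = 0.26) were not called.

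Of genes that repair double-strand breaks and crosslinks 9 of 22 rose and none fell (40.9% and 0%, against 4.49% and 16.5% of all genes), at a median of 0.34. By role, 7 of 12 genes of homologous recombination and 2 of 10 of the Fanconi anaemia pathway rose. Fancb, of the Fanconi anaemia core complex, read 5.42, 4.77, 5.58, 5.23 and 4.67 in DEN DKO, against 3.87, 3.97 and 4.15 in untreated DKO (1.11, SE 0.21, adjusted p = 0.000455). The helicase Blm read 5.57, 5.60, 5.71, 5.11 and 5.42 after DEN and 4.26, 4.85 and 4.82 untreated (0.87, SE 0.18, adjusted p = 0.00127). The groups of both genes were separate. Bard1 (0.73), Rad54b (0.85), Rad51c (0.59) and the helicase Brip1 (0.71) rose too, and Rad54l (0.32, adjusted p = 0.118) was not called. Brip1 was not called without untreated replicate 1 or DEN replicate 3 (0.61 to 0.62, adjusted p = 0.0606 to 0.0844). Rad51c was not called without the set term (0.45, adjusted p = 0.169).

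Repair genes for the base lesions that DEN makes were among those lower. Of 10 measured, 4 fell and none rose (40% lower, against 16.5% of all genes). Mgmt, which removes the alkyl group from guanine, read 5.96, 6.02, 5.92, 5.22 and 5.13 in DEN DKO, against 6.32, 6.26 and 6.41 in untreated DKO (-0.55, SE 0.18, adjusted p = 0.0272). Its groups were separate by a narrow margin. Mgmt was not called without untreated replicates 1, 2 or 3 (-0.58 to -0.51, adjusted p = 0.0538 to 0.0965), nor without the set term, with set as a random block, within set 1, with arrays centred or with quantile normalization repeated (-0.68 to -0.36, adjusted p = 0.0561 to 0.129). With any 1 untreated array left out, with arrays centred or with quantile normalization repeated 2 of the 10 fell. Apex1 (-0.66) and Parp1 (-0.68) fell as well. Mpg, which excises alkylated purines (-0.27, adjusted p = 0.146), and Cyp2e1 (-0.09, adjusted p = 0.76) were not called.

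**Figure D3:**
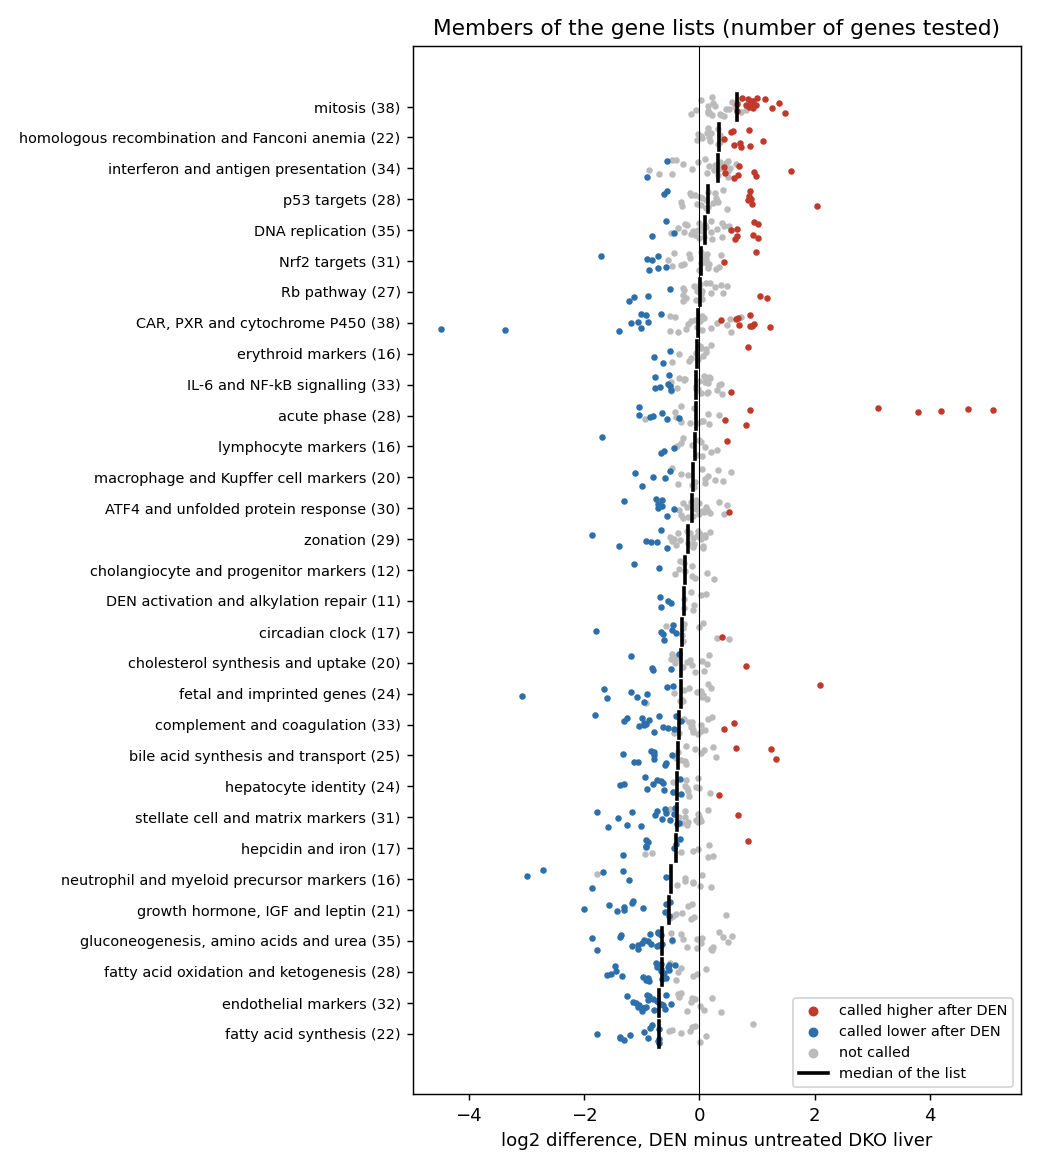
Log2 difference DEN minus untreated DKO (x axis) of every tested member of 31 gene lists (rows, with the number tested), red if called higher, blue if called lower, grey if not called; the black bar is the list's median. Mitosis has the highest median at 0.65 and fatty acid synthesis the lowest at -0.71.

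Most genes that burn fat fell. Of 28 measured genes of fatty acid oxidation and ketogenesis 21 were lower and none higher (75% lower, against 16.5% of all genes), at a median of -0.65 (-0.51 within set 1). Cpt1a, which admits fatty acids to mitochondria and limits the pathway, read 8.36, 8.28, 8.07, 7.53 and 7.23 in DEN DKO, against 9.66, 9.52 and 9.41 in untreated DKO (-1.53, SE 0.20, adjusted p = 9.13e-06). The receptor Ppara, which drives the pathway in fasting, read 7.03, 7.35, 6.99, 6.67 and 7.23 after DEN and 8.35, 8.32 and 8.55 untreated (-1.46, SE 0.22, adjusted p = 3.64e-05). Bdh1, which makes beta-hydroxybutyrate, read 6.87, 7.19, 7.20, 5.93 and 6.43 after DEN and 8.50, 8.31 and 8.53 untreated (-1.60, SE 0.22). In all 3 the groups were well apart. Ehhadh of peroxisomes (-1.45), Acadvl (-0.89), Acaa2 (-0.93) and the carnitine carrier Slc25a20 (-0.75) also fell, while Cd36 (-0.04, adjusted p = 0.905) and Fabp1 (0.12, adjusted p = 0.585) were not called.

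Of genes that make fat, 13 of 22 fell and none rose (59.1% lower, against 16.5% of all genes), at a median of -0.71. The desaturase Fads2 read 8.66, 8.54, 8.82, 8.09 and 8.11 in DEN DKO, against 10.25, 10.08 and 10.23 in untreated DKO (-1.78, SE 0.26, adjusted p = 2.72e-05). Agpat2 and Dgat2, which build triglyceride, were at -1.30 (SE 0.15) and -1.37 (SE 0.24), and Srebf1, the factor that drives the pathway, at -0.82 (SE 0.18). Fasn (-0.32, adjusted p = 0.0953) and Scd1 (-0.07, adjusted p = 0.879) were not called. For cholesterol, 5 of 20 genes fell and 1 rose (25% and 5%, against 16.5% and 4.49% of all genes), with 3 lower without untreated replicate 2 or 3 or with arrays centred and 8 lower without set 2 or with array weights. Scap, which escorts the SREBP factors, was at -1.18 (SE 0.18), Hmgcs1 at -0.81 and Fdft1 at -0.80, and Idi1 rose by 0.80. Hmgcs1 was not called without the set term (-0.80, adjusted p = 0.0573).

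Genes of glucose production and amino acid breakdown were among those lower. Of 35 genes 19 fell and none rose (54.3% lower, against 16.5% of all genes), at a median of -0.64, among them 7 of 8 genes of gluconeogenesis. Pck1, which limits gluconeogenesis, read 8.27, 8.42, 7.91, 7.73 and 8.02 in DEN DKO, against 9.88, 10.13 and 9.81 in untreated DKO (-1.86, SE 0.22, adjusted p = 3.51e-06). Agxt, which clears glyoxylate, read 7.39, 7.74, 7.33, 6.69 and 7.12 after DEN and 9.09, 9.10 and 9.03 untreated (-1.77, SE 0.20, adjusted p = 2.57e-06). Grhpr, the other enzyme of glyoxylate disposal, which is not in the list, read 6.94, 7.23, 6.76, 6.19 and 6.28 after DEN and 8.77, 8.65 and 8.77 untreated (-2.05, SE 0.27). No DEN array reached an untreated one, which held for 21.3% of all genes. Pcx (-1.38), Fbp1 (-0.73), Hpd (-0.96) and Fah (-1.16) fell. In the urea cycle 2 of 7 fell, and Cps1 (-0.22, adjusted p = 0.219), Otc (0.05, adjusted p = 0.877) and Arg1 (0.21, adjusted p = 0.446) were not called.

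Several genes of hepatocyte identity were lower. Of 24 identity genes 12 fell and 1 rose (50% and 4.17%, against 16.5% and 4.49% of all genes), at a median of -0.39. Hnf4a read 7.32, 7.35, 7.14, 7.01 and 6.96 in DEN DKO, against 8.72, 8.60 and 8.46 in untreated DKO (-1.37, SE 0.21, adjusted p = 6.1e-05), with no overlap. Prox1 (-0.66) and Nr5a2 (-0.64) fell, and Foxa1 (-0.01, adjusted p = 0.965), Foxa2 (-0.05, adjusted p = 0.871) and Cebpa (-0.22, adjusted p = 0.385) were not called. Albumin (Alb), with 12.69 to 12.78 in DEN DKO and 12.23 to 12.64 in untreated DKO, was called higher at 0.34. Alb was not called without untreated replicates 1 or 2 or DEN replicate 3 (0.25 to 0.33, adjusted p = 0.0588 to 0.187), nor with the groups of the comparison alone, with quantile normalization repeated or with Xist as a covariate (0.18 to 0.34, adjusted p = 0.0515 to 0.252). Transthyretin (Ttr) was at -0.02 (adjusted p = 0.921) and Apoa2 at 0.19 (adjusted p = 0.217), and the mean signal of the list was 9.16 to 9.72 in DEN DKO and 9.98 to 10.02 in untreated DKO, so the arrays carried the markers of liver. Among zonation genes 7 of 29 fell and none rose (24.1% lower, against 16.5% of all genes and 27.3% and 27% in the 2 brighter bins of signal). They included the pericentral Glul (-0.84) and the periportal Pck1, whereas the Wnt targets Axin2 (0.06, adjusted p = 0.87) and Lgr5 (-0.11, adjusted p = 0.739) and the periportal Cyp2f2 (-0.14, adjusted p = 0.682) were not called. Nr1d1 (Rev-erb alpha), a clock repressor, read 5.73, 5.39, 5.23, 5.23 and 5.75 in DEN DKO, against 6.80, 7.34 and 7.48 in untreated DKO (-1.80, SE 0.24, adjusted p = 1.04e-05). The clock list had 7 of 17 lower (41.2%, against 16.5% of all genes), but 2 lower when arrays were centred, 1 lower with quantile normalization repeated or without untreated replicate 2 or 3, and 4 lower without the set term, untreated replicate 1 or DEN replicate 1 or 2. Arntl (-0.29, adjusted p = 0.406) was not called. The hours at which the livers were taken are not given.

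**Figure D4:**
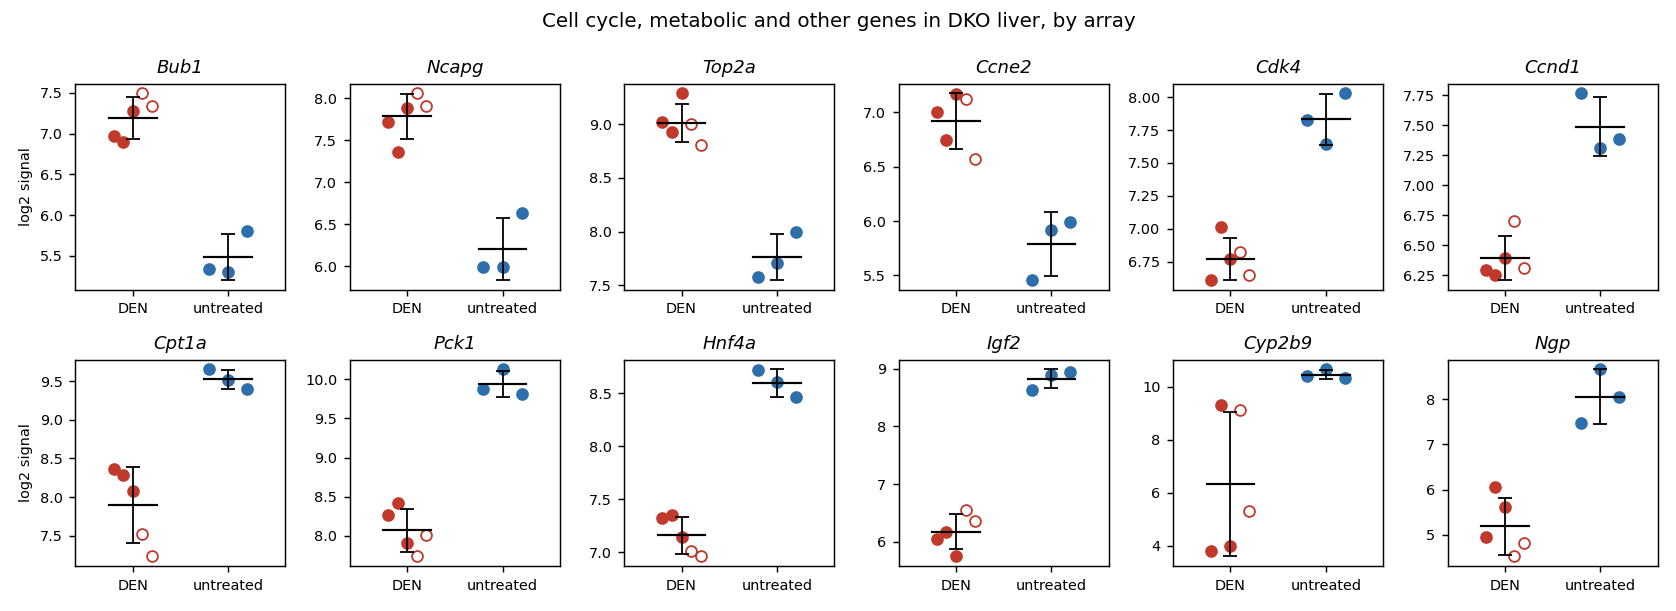
Log2 signal (y axis) of 12 genes on each DEN (red, left) and untreated (blue, right) DKO array, with the mean and SD as black lines; open circles are DEN replicates 4 and 5 of set 3. Bub1, Ncapg, Top2a and Ccne2 are higher on all DEN arrays, the others lower, and Cyp2b9 alone has DEN arrays both near 4 and above 9.

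Cytochrome P450 genes and their regulators moved both ways, with 9 of 38 higher and 10 lower (23.7% and 26.3%, against 4.49% and 16.5% of all genes) and a median of -0.01. Without the set term 2 were higher. Cyp2b9, which is expressed more in females than in males, had the largest fall and the widest spread. It read 3.80, 9.33, 4.00, 9.11 and 5.32 in DEN DKO, against 10.39, 10.66 and 10.34 in untreated DKO (-4.48, SE 1.15, adjusted p = 0.0061). Its neighbour Cyp2b13 also fell, with 3.54, 6.74, 2.73, 5.50 and 3.78 after DEN and 8.21, 7.65 and 7.43 untreated (-3.37, SE 0.76, adjusted p = 0.00215). For both genes all DEN arrays were lower than the untreated ones, with replicates 2 and 4 nearest to them and replicates 1 and 3 farthest. Xist was high on replicates 3 and 5, which together with replicate 1 read lowest for both genes. The part of sex in this order was not tested. The related Cyp2b10, a standard target of the receptor CAR, was not called (-0.51, adjusted p = 0.218). The receptors CAR (Nr1i3, -1.01), PXR (Nr1i2, -0.93) and their partner Rxra (-0.66) fell. Cyp2d10 (-1.18), Cyp2d26 (-0.89), Cyp2c23 (-1.01) and Cyp2d22 (-1.05) fell, while Cyp2c38 (1.22, SE 0.22), Cyp2c67 (0.94), Cyp2c39 (0.92) and Cyp3a11 (0.63) rose. Cyp3a11 was not called without untreated replicate 1 (0.48, adjusted p = 0.092), nor without the set term (0.45, adjusted p = 0.174). Cyp2c39 was not called without the set term (0.59, adjusted p = 0.172).

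Targets of Nrf2, the sensor of electrophiles, were mixed. Of 31, 2 rose and 7 fell (6.45% and 22.6%, against 4.49% and 16.5% of all genes), shares near those of all genes, with a median of 0.02. Osgin1 read 5.79, 6.31, 6.22, 5.75 and 6.27 in DEN DKO, against 7.27, 7.79 and 8.02 in untreated DKO (-1.70, SE 0.32, adjusted p = 0.00041). Hmox1, which breaks down haem, read 6.28, 6.05, 5.84, 6.21 and 5.69 after DEN and 6.70, 7.02 and 6.92 untreated (-0.90, SE 0.23, adjusted p = 0.00621). Both were lower on every DEN array. Gclc, which limits glutathione synthesis, fell (-0.58), Ugdh rose by 0.98, and the standard target Nqo1 was not called (0.10, adjusted p = 0.689). The list had 1 rise without any 1 untreated array or without DEN replicate 3 or 5, and 11 falls with array weights. In WT liver 11 of the 31 rose and none fell (35.5% higher, against 2.08% of all genes), and the difference of the responses was called below 0 for 9 members (29%, against 8.54% of all genes) and above 0 for none. In the unfolded protein response, 8 of 30 fell and 1 rose (26.7% and 3.33%, against 16.5% and 4.49% of all genes), with 5 lower without untreated replicate 1 or with quantile normalization repeated and none higher without DEN replicate 1. The share lower was near the 27.3% and 27% of all genes in the 2 brighter bins of signal. Sel1l, of the degradation channel of the endoplasmic reticulum, was at -1.31 (SE 0.17), Pdia4 at -0.72 (-0.26, adjusted p = 0.143, as the mean of its probe sets) and Xbp1 at -0.75, and Hspa5 (-0.21, adjusted p = 0.299) and Ddit3 (0.18, adjusted p = 0.578) were not called.

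In bile acid genes 10 of 25 fell and 3 rose (40% and 12%, against 16.5% and 4.49% of all genes), at a median of -0.36. Baat, which conjugates bile acids, read 7.22, 7.57, 7.50, 6.96 and 6.79 in DEN DKO, against 6.34, 6.10 and 6.06 in untreated DKO (1.33, SE 0.20, adjusted p = 3.52e-05), and was separate. The uptake carrier Slco1a1 rose by 1.24 (SE 0.33). The list had 6 members lower without untreated replicate 1 or 2 and 5 lower with quantile normalization repeated. The sterol exporters Abcg5 (-1.07) and Abcg8 (-1.13), the export pump Abcb11 (-0.59) and the repressor Nr0b2 (-1.32) fell. Abcb11 was not called without untreated replicate 1 (-0.52, adjusted p = 0.0727), nor with quantile normalization repeated (-0.48, adjusted p = 0.0637). Cyp7a1, the rate-limiting enzyme of bile acid synthesis, was not called (0.29, adjusted p = 0.536).

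Genes of growth factor signalling were among those lower. In the list of growth hormone, IGF and leptin genes 12 of 21 were lower and none higher (57.1% lower, against 16.5% of all genes), at a median of -0.53, and 5 of 6 ligands and binding proteins were among them. Igfbp2 read 7.02, 7.36, 7.20, 6.68 and 7.18 in DEN DKO, against 9.34, 8.74 and 8.89 in untreated DKO (-2.00, SE 0.33, adjusted p = 9.7e-05). Igfals (-1.43), Igfbp3 (-0.98), Igfbp1 (-1.31), the leptin receptor (Lepr, -1.57) and Stat5b, which carries the growth hormone signal (-1.14), fell. Igfbp1 was not called without the set term (-1.0, adjusted p = 0.0845). Igf1 was not called (-0.41, adjusted p = 0.0833). Igf2, an imprinted fetal growth factor, read 6.04, 6.17, 5.74, 6.55 and 6.35 in DEN DKO, against 8.64, 8.89 and 8.96 in untreated DKO (-3.07, SE 0.49, adjusted p = 7.28e-05). Untreated WT liver read 5.37, 5.23 and 8.72, so 2 of its 3 arrays lay below all DEN DKO arrays. Of 24 fetal and imprinted genes 9 fell and 1 rose (37.5% and 4.17%, against 16.5% and 4.49% of all genes), at a median of -0.32. Peg3 (-1.66), Grb10 (-1.08), Gpc3 (-1.60) and Mest (-1.18) fell, Spink1, a trypsin inhibitor, rose by 2.10 (SE 0.19), and Afp (-0.92, adjusted p = 0.226), Dlk1 (0.14, adjusted p = 0.461) and Meg3 (-0.44, adjusted p = 0.359) were not called.

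Among iron genes 8 of 17 fell and 1 rose (47.1% and 5.88%, against 16.5% and 4.49% of all genes), at a median of -0.40. The exporter Slc40a1 (-0.93), the hepcidin regulators Tmprss6 (-0.92) and Tfr2 (-0.89) and ferritin Ftl1 (-1.33) fell, and the transferrin receptor Tfrc rose (0.84). Tfrc was not called without untreated replicates 1 or 3 (0.73 to 0.75, adjusted p = 0.0968 to 0.108), nor without the set term (0.76, adjusted p = 0.0608). The list had 5 members lower without untreated replicate 3 or with arrays centred. Hamp, which encodes hepcidin, read 10.12, 9.80, 10.17, 10.18 and 10.41 in DEN DKO, against 10.40, 10.67 and 10.79 in untreated DKO and 3.49, 3.78 and 7.19 in untreated WT. The DKO groups touched, and both lay far above untreated WT.

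Other genes among the largest changes had varied roles. Ddias, an apoptosis suppressor induced by DNA damage, read 6.68, 6.81, 7.34, 7.81 and 6.48 in DEN DKO, against 5.12, 4.58 and 4.72 in untreated DKO (2.29, SE 0.32, adjusted p = 2.05e-05). The aldo-keto reductase Akr1c19 read 7.38, 7.10, 7.22, 7.92 and 7.37 after DEN and 5.58, 4.99 and 5.48 untreated (2.10, SE 0.29). Both groups were separate in each case. BC023105 rose by 2.87 (SE 0.61), with 6.05 to 7.71 after DEN and 3.52 to 3.83 untreated, and Cplane1, a gene of cilia assembly, by 1.80 (SE 0.38). Its probe sets disagreed, and their mean was not called (0.48, adjusted p = 0.0602). Mup3, of the major urinary protein family, whose members may share probes, was called at 1.81 (SE 0.41). It read 8.80, 8.99 and 8.69 on DEN replicates 1 to 3 and 6.75 and 7.18 on replicates 4 and 5, within or near the 6.45 to 7.05 of untreated arrays. Mup3 was not called without the set term (1.32, adjusted p = 0.169). The hydrolase Abhd2 read 8.11, 8.04, 7.75, 7.80 and 7.68 in DEN DKO, against 10.08, 9.90 and 10.11 in untreated DKO (-2.25, SE 0.21, adjusted p = 2.22e-07). The secreted factor Prok1 read 4.03, 4.55, 4.53, 3.46 and 3.86 after DEN and 6.24, 5.83 and 6.34 untreated (-1.95, SE 0.19), and untreated WT read 4.01 to 4.05. The ephrin Efna1 (-1.95), the protease Ctse (-1.98) and Pcp4l1 (-2.01) fell as well, with no overlap between the groups.

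Markers of the cells that keep both genes were lower in several lists. Of 32 endothelial markers 21 fell and none rose (65.6% lower, against 16.5% of all genes), at a median of -0.70. Their mean log2 signal was 5.10 to 5.37 in DEN DKO and 5.87 to 5.93 in untreated DKO. Stab2, a scavenger receptor of sinusoidal endothelium, read 6.24, 6.44, 6.27, 6.23 and 6.04 in DEN DKO, against 7.61, 7.35 and 7.43 in untreated DKO (-1.26, SE 0.18, adjusted p = 1.87e-05). Pecam1 read 6.19, 5.80, 6.04, 5.79 and 5.92 after DEN and 6.79, 6.77 and 6.84 untreated (-0.89, SE 0.15). Neither pair of groups overlapped. The transcription factor Erg (-1.06), Ehd3 (-0.98), Stab1 (-0.88) and the VEGF receptors Flt1 (-1.04) and Kdr (-1.16) fell, and Lyve1 (-0.15, adjusted p = 0.501) and Vwf (-0.36, adjusted p = 0.063) were not called.

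Of 31 stellate cell and matrix markers 16 fell and 1 rose (51.6% and 3.23%, against 16.5% and 4.49% of all genes), at a median of -0.39, with a mean signal of 5.44 to 5.56 in DEN DKO and 5.99 to 6.01 in untreated DKO. Sparc read 9.95, 9.86, 9.92, 9.51 and 9.71 after DEN, against 11.08, 10.92 and 11.02 untreated (-1.17, SE 0.12, adjusted p = 1.26e-06). Fibronectin (Fn1, -1.41), smooth muscle actin (Acta2, -1.58) and Reln (-1.78) fell, and Lum was called at 0.67 with overlapping groups. Lum was not called without untreated replicates 1 or 3 or DEN replicates 2 or 3 (0.55 to 0.69, adjusted p = 0.0557 to 0.124), nor without the set term, with set as a random block or with Xist as a covariate (0.38 to 0.61, adjusted p = 0.0541 to 0.371). With quantile normalization repeated 10 of the 31 fell. Des (0.02, adjusted p = 0.95) and Col1a1 (-0.21, adjusted p = 0.274) were not called, nor was the stellate ligand Hgf (-0.35, adjusted p = 0.313).

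Neutrophil and myeloid precursor markers were lower in 7 of 16 (43.8%, against 16.5% of all genes), with none higher and a median of -0.48, and their mean signal was 4.38 to 5.07 in DEN DKO and 5.21 to 5.78 in untreated DKO. The granule genes led. Ngp read 4.94, 6.06, 5.61, 4.51 and 4.81 in DEN DKO, against 7.46, 8.67 and 8.06 in untreated DKO and 4.69, 4.51 and 5.36 in untreated WT (-2.99, SE 0.44, adjusted p = 3.51e-05). Camp read 4.75, 5.18, 4.54, 4.50 and 4.46 after DEN, against 5.90, 6.99 and 6.68 in untreated DKO and 4.51, 4.46 and 4.72 in untreated WT (-1.86, SE 0.26). For both genes the untreated DKO arrays stood alone and the DEN DKO arrays overlapped untreated WT. Ltf (-1.23), S100a9 (-1.68) and the stefin Stfa3 (-2.70, SE 0.81), whose family may share probes, fell, and Mmp9 (-0.26, adjusted p = 0.193) and Elane (-0.11, adjusted p = 0.601) were not called. S100a9 was not called without untreated replicates 2 or 3 (-1.65 to -1.50, adjusted p = 0.0542 to 0.0792), nor without the set term, with set as a random block or with a robust variance trend (-1.68 to -1.49, adjusted p = 0.0564 to 0.234). Stfa3 was not called without untreated replicates 2 or 3 (-2.65 to -2.48, adjusted p = 0.0567 to 0.0738), nor with a robust variance trend (-2.70, adjusted p = 0.0613). Of the list 4 members fell without untreated replicate 2 and 3 without untreated replicate 3. The part of these cell type markers in the results above was not tested.

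In the other cell type lists fewer members were called. Of 20 macrophage markers 5 fell (25%, against 16.5% of all genes) and none rose (mean signal 5.54 to 5.96 in DEN DKO and 5.82 to 5.98 in untreated DKO), among them lysozyme (Lyz2, -1.11), while Adgre1 (-0.09, adjusted p = 0.84) was not called. The macrophage count was 3 without untreated replicate 1 or 2, without the set term, with set as a random block, with the groups of the comparison alone, with arrays centred and with quantile normalization repeated. Of 16 lymphocyte markers 4 fell and 1 rose (25% and 6.25%, against 16.5% and 4.49% of all genes), with 2 lower without any 1 untreated array or DEN replicate 4, without the set term, within set 1, with the groups of the comparison alone, with the higher filter at the 40th percentile and with arrays centred. Of 16 erythroid markers 3 fell and 1 rose (18.8% and 6.25%, against 16.5% and 4.49% of all genes), with 1 lower without untreated replicate 1 or with quantile normalization repeated. Of 12 cholangiocyte and progenitor markers Prom1 (-1.14) and Krt8 (-0.70) fell (16.7%, against 16.5% of all genes). Krt8 was not called without untreated replicates 1 or 3 or DEN replicates 1, 2 or 3 (-0.68 to -0.62, adjusted p = 0.0563 to 0.107), nor without the set term, with set as a random block, with arrays centred, with quantile normalization repeated or with Xist as a covariate (-0.63 to -0.56, adjusted p = 0.0547 to 0.168). Krt19 (0.13, adjusted p = 0.628), Epcam (-0.12, adjusted p = 0.626) and Sox9 (-0.26, adjusted p = 0.38) were not called. Interferon and antigen presentation genes rose in 8 of 34 and fell in 2 (23.5% and 5.88%, against 4.49% and 16.5% of all genes), at a median of 0.33. Ifit3 read 7.35, 7.07, 7.90, 6.39 and 6.14 in DEN DKO, against 5.56, 5.63 and 5.56 in untreated DKO (1.58, SE 0.35, adjusted p = 0.00197). The array nearest to untreated was from set 3, as for Ifit1 (0.95). B2m, of class I presentation, rose by 0.59 (SE 0.14), Cd74, of class II, fell (-0.90), and Irf1 (-0.88, adjusted p = 0.0837) was not called. Cd74 was not called without untreated replicates 1 or 3 (-0.83 to -0.82, adjusted p = 0.0508 to 0.0515). The count of interferon rises was 3 without untreated DKO replicate 3, 4 without untreated DKO replicate 2 or DEN DKO replicate 3, 5 without untreated DKO replicate 1 or without the set term, 13 within set 1 and 15 with array weights.

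Whether DKO and WT liver answered differently was tested as the difference of the responses. In WT 636 genes (3.99%) were called, and 214 of these were called in DKO with the same sign and 45 with the opposite sign. The difference was called for 1580 genes (9.91%), 217 above 0 (1.36%) and 1363 below (8.54%). The count was 806 without untreated WT replicate 3, 1051 without untreated DKO replicate 3 and 702 with Xist as a covariate. Saa1, Saa2, Orm1 and Orm2 were called higher in both genotypes, and the difference was not called (adjusted p = 0.321, 0.848, 0.0985 and 0.0716). The differences were 1.57 (SE 0.93), 0.35 (SE 0.83), 1.88 (SE 0.72) and 1.96 (SE 0.69), so the responses were not shown to be equal. Within set 1 the differences were 0.11, -1.16, 0.59 and 0.71, and not called. On the WT side, DEN replicates 4 and 5 lay below replicates 1 to 3 for Saa1, as given above. Ccng1 rose by 2.49 (SE 0.21) in WT, and the difference of -0.45 (SE 0.31, adjusted p = 0.4) was not called. Within set 1 alone, however, the Ccng1 difference was called at -1.04 (adjusted p = 0.00737). Also called there but not over all arrays were Mdm2 (-0.97), Eda2r (-0.95), Polk (-0.70) and Ddias (-1.05). Phlda3, Sesn1, Aen, Bbc3 and Btg2 were called in neither fit. Of the lists, fatty acid oxidation had 9 of 28 members below 0 and none above, and endothelial markers 11 of 32 and none (32.1% and 34.4% below, against 8.54% of all genes). No mitotic gene of 38 was called, with a median difference of 0.25. Few genes were called above 0 at all (1.36%), so that count says little about this list. Serpina3n fell in DKO and was called higher in WT at 0.51, a difference of -1.55 (SE 0.22, adjusted p = 0.000119). Abhd2 fell in both, at -0.97 in WT, with a difference of -1.28 (SE 0.29, adjusted p = 0.00586).

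**Figure D5:**
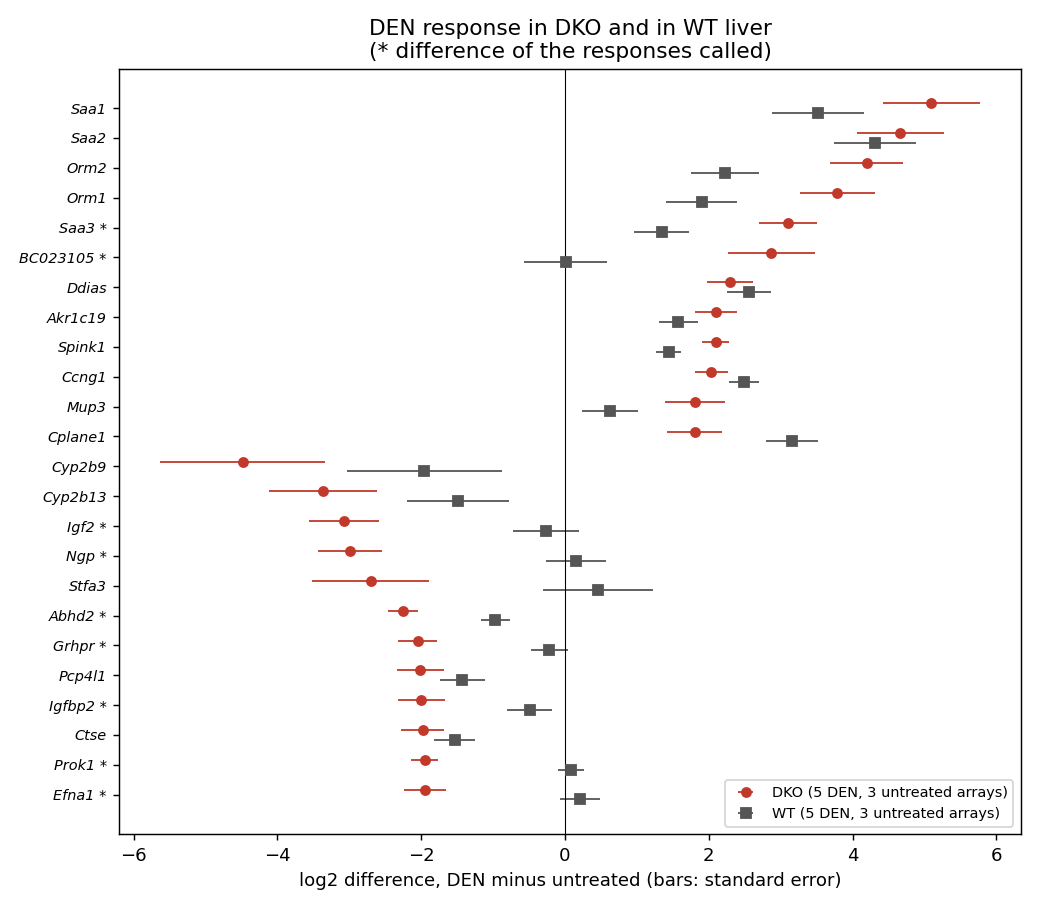
Log2 difference DEN minus untreated (x axis) in DKO (red circles) and WT (grey squares) with its SE, for the 12 genes with the largest rises and the 12 with the largest falls in DKO; a star marks genes whose responses differed. Saa1, Ddias and Ccng1 rose in both genotypes, and Igf2, Ngp, Prok1 and Efna1 were lower in DKO with WT near 0.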

How the data were processed

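RNA of 25 frozen liver samples was amplified (WT-Ovation Pico) and hybridised to Affymetrix arrays, per the labels' protocols. The authors deposited log2 signals of 35555 probe sets made with RMA in Affymetrix Expression Console 1.1, per the submitters' processing notes. RMA forces the arrays to one distribution per probe, so changes are relative to the rest of the array, and arrays carry no read depth: their number limits the precision. Of the probe sets, 21789 had 1 gene symbol in the platform table, 1620 had several and 12146 were not listed. The probe set with the highest mean stood for each of 19938 genes, and 3987 genes under the 20th percentile (log2 3.33) were left out. Groups were compared in R 4.3.3 with limma 3.58.1 and statmod 1.5.0 over all 25 arrays, with group means and the array set as a fixed term, moderated variances and Benjamini-Hochberg adjustment over 15951 genes. This code was tested on simulated data. Alternatives changed the set term, arrays, filter, scaling, probe set rule and variance model. The promoters came from a RefSeq table (GRCm38.p6). Genes named were Rb1, the 12 largest called rises and falls with the same sign within set 1, up to 6 members of each list by p, the first of opposite sign or not called, members with a defining role, and close paralogues. The members and lists were chosen with earlier results of these data known.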

Additional observations from a re-analysis of the deposited data

Results flagged for a closer look

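In each of 6 named genes, 1 DEN DKO array stood apart from the other 4, with a gap of over 0.71 of the group's range. Chance gives about 1 in 20 groups such an array, and 233 genes were examined. Il6st was at 8.11 on DEN DKO replicate 5, against 8.58 to 8.77 on the others. Ttk was at 5.97 on DEN DKO replicate 2, against 6.46 to 6.55 on the others. Bard1 was at 4.67 on DEN DKO replicate 5, against 5.22 to 5.32 on the others. Acaa2 was at 9.77 on DEN DKO replicate 4, against 10.27 to 10.47 on the others. Col1a1 was at 5.66 on DEN DKO replicate 1, against 5.32 to 5.4 on the others. Cd74 was at 4.53 on DEN DKO replicate 4, against 4.01 to 4.11 on the others.

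The DEN response differed between DKO and WT for 82 of the 233 named genes, by the difference of the responses in limma (adjusted p from 6.91e-05 to 0.0495). Of all tested genes 9.91% were called. Most named genes were chosen by their DKO response, which is a part of the difference. The count and its direction therefore do not measure how common a difference was. Of these 82 differences, all had the same sign within set 1, 56 were also called there, and 48 were called with Xist as a covariate. The arrays of set 1 are part of the main fit, so the shared sign is not an independent check. DEN WT replicates 4 and 5 and untreated WT replicate 3 belonged to set 2. High Xist was found only on untreated arrays in WT and only on DEN arrays in DKO. Beyond the alternatives given, the part of the sets and of the sexes in the differences was not tested. Values are DKO minus WT on the log2 scale. The least stable of the 82 calls was that of Lyz2, lost in 23 of 29 alternatives. Stat5b lost it in 22, Srebf1 in 20 and Saa3 and Xpc in 18 each. The difference was above 0 for Saa3 (1.76), Orm3 (1.16), Ccne2 (1.18), Bard1 (0.69), Cyp2c39 (1.39), Cyp3a11 (0.79), Baat (1.2), Slco1a1 (1.97), Tfrc (1.61) and BC023105 (2.86). Of these genes, Cyp2c39, Baat, Tfrc and BC023105 were also called with Xist as a covariate, and the others were not. Among genes of plasma proteins and cytokine signalling it was below 0 for Serpina3n (-1.55), Itih3 (-0.75), Hp (-0.58), Hamp (-4.93), Stat3 (-0.74), Tnfrsf1a (-1.05), Serpinf2 (-1.71), Masp1 (-1.13), Plg (-0.65), Proc (-0.94), Masp2 (-1.02) and F2 (-0.74). In the cell cycle, p53 target and repair lists it was below 0 for Xpc (-0.6), Fas (-1.19), Cdk4 (-1.13), Ccnd1 (-1.09), E2f4 (-0.57), Gins2 (-1.11), Mgmt (-0.98) and Apex1 (-0.89). Metabolic genes below 0 were Cpt1a (-1.3), Bdh1 (-1.5), Ehhadh (-1.39), Acadvl (-0.83), Acaa2 (-0.87), Slc25a20 (-0.83), Fads2 (-1.53), Agpat2 (-1.25), Srebf1 (-0.78), Scap (-1.11), Pck1 (-1.3), Agxt (-1.17), Grhpr (-1.83), Fbp1 (-0.81), Fah (-0.91), Prox1 (-0.66), Nr1d1 (-1.69) and Abcg5 (-0.83). Cytochrome, Nrf2 and stress response genes below 0 were Cyp2d10 (-1.51), Cyp2d26 (-1.21), Cyp2c23 (-1.29), Osgin1 (-2.34), Hmox1 (-1.52), Gclc (-1.01), Nqo1 (-0.93), Sel1l (-0.95), Xbp1 (-0.73) and Ftl1 (-1.74). Growth and fetal genes below 0 were Igfbp2 (-1.51), Igfals (-0.94), Igfbp3 (-1.11), Stat5b (-0.77), Igf2 (-2.81), Grb10 (-0.93), Mest (-1.13), Afp (-2.7), Abhd2 (-1.28), Prok1 (-2.04) and Efna1 (-2.15). Cell type markers below 0 were Pecam1 (-0.87), Erg (-1.0), Ehd3 (-0.82), Stab1 (-0.75), Sparc (-1.16), Fn1 (-0.83), Acta2 (-1.17), Ngp (-3.14), Camp (-1.89), Ltf (-2.37), Lyz2 (-0.9), Prom1 (-1.16) and Krt8 (-1.8).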

How the results depend on the processing

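The count of called genes stayed within 1.5 times of 3344 under each alternative (2396 to 4770), and so did that of lower genes (1909 to 3363). The count of higher genes, 716, became 1727 with arrays centred, which leaves fewer lower by construction, and 1407 with array weights, and lay between 396 and 715 when 1 array was left out, with 396, 397 and 425 without untreated DKO replicates 1, 2 and 3. The DKO minus WT count, 1580, became 664 without the set term, 881 without set 2 and 702 with Xist as a covariate, and lay between 806 and 1684 when 1 array was left out. The causes were not tested. Rb1, not called at 0.48, was called within set 1 (0.49), with the groups of the comparison alone (0.49), without set 2 (0.48), with arrays centred (0.59) and with array weights (0.51). Of the 232 named genes besides Rb1, no called gene changed sign under any alternative. Calls were lost by 21 without the set term, 9 with set as a random block, 9 with quantile normalization repeated, 5 with Xist as a covariate, 2 within set 1 and 19 without untreated DKO replicate 1. No paired analysis was possible because the replicate numbers were given in accession order and pair no arrays. All 3 untreated DKO arrays lay in set 1, so set 3 has no untreated array of its genotype. The effect of set 3 was estimated from DEN arrays of p53 knockout mice and from the DEN DKO arrays themselves. Only these groups had arrays in both set 1 and set 3.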
